A study of Mesocricetus auratus with 64 samples.

Results

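Embryos of the golden hamster labelled 33PEA were compared between the wild type (WT-33PEA) and the Pld6 knockout (KO-33PEA) by long RNA sequencing. The comparison takes in the 4 long RNA libraries that carry this stage label, 2 for each genotype, of 64 samples in the series. The series profiles small and long RNA in oocytes, early embryos and testis of wild-type and Pld6-deficient hamsters of the Syrian breed. No treatment is labelled, and the genotype label of the knockout is Pld6 KO, with no allele or clone named. The series text speaks of Pld6-deficient females, and the labels do not say which sire was used or spell out PEA and 1C. Per the labels' protocols each library was made from a single oocyte or embryo by a modified Smart-seq2 type of method, which reverse transcribes and amplifies long RNA, and the same volume of ERCC spike-in RNA was added to each. No parent is named for any embryo, so the p-values below measure only the spread between libraries. Unless another fit is named, the spread for genes was estimated jointly over all oocyte and embryo long RNA libraries, not over these 4 alone.

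Pld6 is a protein of the outer mitochondrial membrane that is needed to make piRNAs, through which PIWI proteins find transposons and other target transcripts, and that has also been linked to mitochondrial fusion. The first divisions of a mammalian embryo run on RNA and protein stored in the oocyte. This maternal RNA is degraded while the embryo starts to transcribe its own genome, and genes for ribosomes, RNA processing and other general functions are among those switched on at that step.

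In KO-33PEA embryos, transcripts that wild-type embryos lose between the stages labelled 1C-20PEA and 54PEA still held 48.9% and 45.7% of the gene counts, against 11.1% and 8.72% in WT-33PEA. Transcripts that wild-type embryos gain over the same span held 4.34% and 6.77%, against 32.5% and 34.2%. Oocyte genes such as Bcl2l10, Eif4e1b and Padi6 rose against WT-33PEA. Dppa4 fell, the 1 embryonic factor of 25 tested that passed (4.0%, against 4.46% lower over all genes tested). Ribosome biogenesis and ribosomal protein genes were also among those that fell. Some of the biogenesis genes had no read in either KO library. All 76 cytosolic ribosomal protein genes tested were lower in both KO libraries than in both WT libraries, which held for 20.7% of all genes tested.

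The WT-33PEA libraries held 5812078 and 4235441 gene counts, and the KO-33PEA libraries 6691910 and 5737284. They counted 11071 and 9523 genes in WT and 9474 and 9430 in KO. ERCC reads made up 12.03% and 10.7% of the counts in WT and 21.2% and 17.4% in KO, so that 7.31 and 8.35 gene counts stood against each ERCC count in WT and 3.73 and 4.74 in KO. The log2 ratio of the group means was −0.89, with both KO libraries below both WT libraries. The exact two-sided permutation test gave p = 0.33, which is the smallest that 2 against 2 allows. In a bulk measurement of an embryo, fewer cells and less RNA per cell cannot be told apart. Over the 9297 genes with at least 10 counts in 2 or more of the 4 libraries, Spearman's rho was 0.793 for the WT pair, 0.693 for the KO pair and 0.222 to 0.36 for the WT and KO pairings. Those genes are not independent replicates.

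The targeted gene was read first. Pld6 stood at 5.11 and 27.3 CPM (counts scaled to library size by the TMM method) in the WT libraries, from 32 and 138 counts, and had no count in either KO library. It was at least 69.5-fold lower in KO, taking 3 counts over the group as the floor (edgeR quasi-likelihood test with Benjamini-Hochberg adjustment, adjusted p = 0.0214). The adjusted p of Pld6 was 0.0869 with ERCC scaling, 0.0765 without the second WT library, 0.0782 without the first KO library and 0.0761 without the second. KO libraries of earlier stages did carry Pld6 reads, at 12.58 and 11.59 CPM in KO-1C-20PEA against 28.4 and 20.9 in WT-1C-20PEA, and at a mean of 31.6 CPM in KO-GV against 34.7 in WT-GV. None of the 4 libraries of 54PEA had a Pld6 count in either genotype. The lack of counts in KO-33PEA is therefore no check of the genotype labels by itself. In the levels that follow, the values are CPM of replicates 1 and 2 in that order, and adjusted p-values come from the same edgeR test.

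The embryo markers Zp3, Nlrp5, Padi6, Dppa3, Pou5f1 and Gdf9 had counts in every library. The oocyte and embryo gene Dppa3 had 7208 and 6898 CPM in WT and 15940 and 16270 in KO, and the zona pellucida gene Zp3 had 176 and 278 in WT and 425 and 718 in KO. Pou5f1, which encodes the embryonic transcription factor Oct4, had 195 and 207 CPM in WT and 518 and 571 in KO. Dppa3, Zp3 and Pou5f1 were each higher in both KO libraries, and none passed the test, with adjusted p-values of 0.253, 0.181 and 0.263. Zar1, a further oocyte marker, was not in every library: it had 0.638 and 0 CPM in WT and 14.0 and 5.86 in KO (adjusted p = 0.0757). Of the granulosa and cumulus cell markers, Amh, Fshr, Foxl2, Inha, Lhcgr and others had no count in any of the 4 libraries, and the summed level of the list was 1.596 and 5.93 CPM in WT and 39.2 and 38.3 in KO. Star, a cholesterol carrier of steroid-making cells, had 0.958 and 0 CPM in WT and 23.8 and 17.9 in KO. The blood markers C1qa, C1qb, C1qc and Alas2 and the sperm markers Prm2, Tnp1, Acr and Izumo1 had no count. The only marker of other cells that passed was Csf1r, the receptor of colony stimulating factor 1, at 107 and 37.5 CPM in WT and 1529 and 413 in KO (adjusted p = 0.0344). Csf1r was at 551 and 371 CPM in WT-1C-20PEA, above both WT-33PEA libraries. The part of these markers in the results was not tested.

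Across the transcriptome, 978 of 17294 genes tested were higher in KO-33PEA (5.66%) and 772 were lower (4.46%), 10.1% in all, at an adjusted p under 0.05 (edgeR quasi-likelihood test). The changes were large. The median log2 change was 5.87 among the higher genes and −9.33 among the lower genes, values that include genes absent from a group, for which the fitted change is not a measured ratio. Of the higher genes, 308 had no count in either WT library, and of the lower genes, 479 had no count in either KO library. At 1 CPM or more in all 4 libraries there were 272 higher and 162 lower genes. Long non-coding RNA genes were 16.1% of the higher genes, 5.57% of the lower genes and 17.3% of the genes tested.

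**Figure D1:**
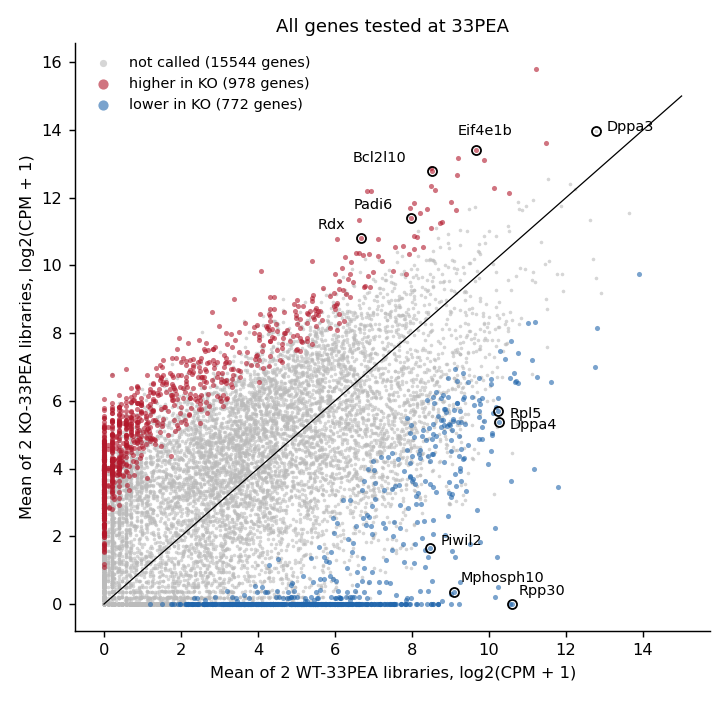
Mean level in the 2 KO-33PEA libraries (vertical axis) against the 2 WT-33PEA libraries (horizontal axis), both as log2(CPM + 1), for the 17294 genes tested; each point is a gene, and the line marks equal levels. The 978 higher genes (red) lie above the line and the 772 lower genes (blue) below it, many of the lower genes along the axis where KO had no count. Genes not called (grey) lie among both.

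These counts rest on the spread shared across the 26 oocyte and embryo libraries, with a common dispersion of 1.07, while the 33PEA libraries alone gave 2.06 over the same genes. A fit of the 4 libraries alone called 0 of 9266 genes, with 2966 at an unadjusted p under 0.05 and a smallest adjusted p of 0.0514, and a fit of the 8 libraries of 33PEA and 54PEA called 0 of 12159, with 1834 at an unadjusted p under 0.05. Scaling to ERCC counts left 3 higher genes (Asxl3, Mrpl32 and Tmem9, named after their values were seen) and 68 lower genes. Without WT-33PEA replicate 2 there were 150 higher and 302 lower genes, lower genes numbered 488 without the first WT library, 371 without the first KO library and 389 without the second. Of the 1750 genes called, 1634 to 1732 kept their sign when a library was left out, and all 1750 kept it under ERCC scaling. The groups did not overlap for 820 of the higher and 725 of the lower genes, and the changes were large. Reversals were therefore unlikely beforehand, and the kept signs are no check of these genes.

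The wild-type course of development gave a yardstick from a contrast of stages other than 33PEA, taken in the pooled fit. The 33PEA libraries still entered the low-count filter, the TMM scaling and the shared spread of that fit. Between WT-1C-20PEA and WT-54PEA, 3018 genes fell and 929 rose at least 4-fold with an adjusted p under 0.05, and these are called cleared and gained genes here. Genes that stayed under 5 CPM at both of these stages were left out. Cleared genes took 11.1% and 8.72% of the gene counts in the WT-33PEA libraries and 48.9% and 45.7% in the KO-33PEA libraries. Their share was 56.6% and 62.4% in WT-1C-20PEA and 53.3% and 55.8% in KO-1C-20PEA, and 1.86% and 1.95% in WT-54PEA. KO-33PEA thus stood nearer to the 1C-20PEA libraries than to WT-33PEA in this share, and the 2 genotypes did not overlap at 33PEA.

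Gained genes showed the opposite pattern. They took 32.5% and 34.2% of the counts in WT-33PEA and 4.34% and 6.77% in KO-33PEA. In 1C-20PEA their share was 1.36% and 1.33% in WT and 1.99% and 1.79% in KO, and in WT-54PEA it was 38.3% and 39.4%. For KO-54PEA it was 32.6% in replicate 1 and 12.7% in replicate 2, while cleared genes took 8.70% and 19.4% there. In the share of gained genes, both WT-33PEA libraries were thus close to WT-54PEA, and both KO-33PEA libraries lay little above 1C-20PEA.

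**Figure D2:**
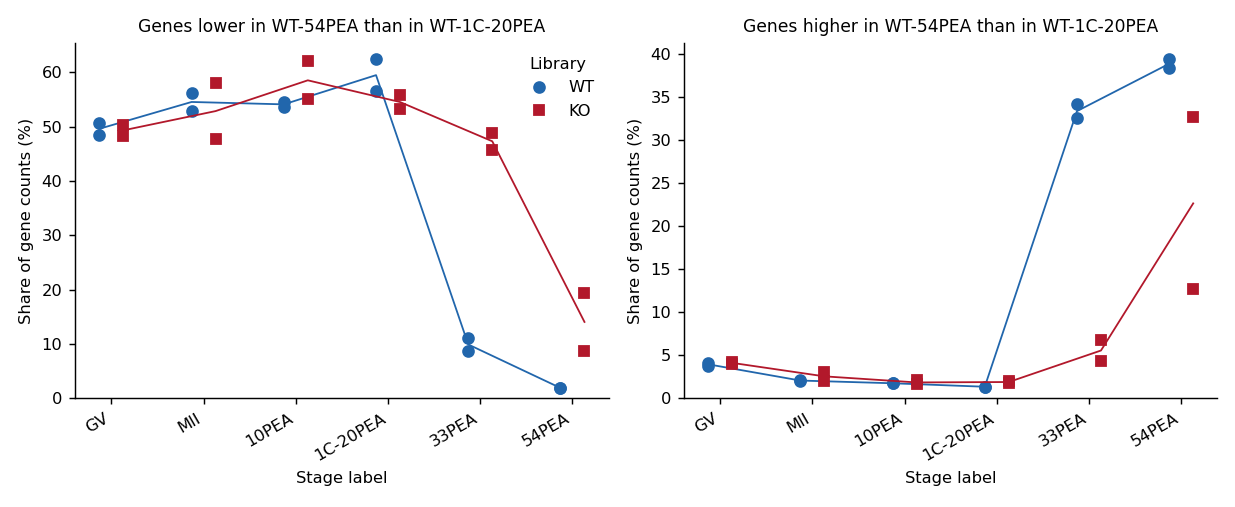
Share of gene counts (%) held by the 3018 cleared genes (left) and the 929 gained genes (right) in each WT (blue circles) and KO (red squares) library at 6 stages; lines join the means of 2 libraries. At 33PEA the WT libraries hold 11.1% and 8.72% in cleared genes and the KO libraries 48.9% and 45.7%, while gained genes hold 32.5% and 34.2% in WT and 4.34% and 6.77% in KO.

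Gene by gene, 611 of the 3018 cleared genes were higher in KO-33PEA (20.2%, against 5.66% of all genes tested) and 42 were lower. Their median log2 change was 2.39, or 2.19 with absent genes set at the bound that 3 counts give, against 0 over all genes tested. Of the 929 gained genes, 205 were lower (22.1%, against 4.46%) and 4 were higher, namely Gfm1, Sephs1, Srd5a1 and Tmem39a, the last 3 of which were named after their values were seen. The median of the gained genes was −3.08, or −2.94 with absent genes at their bound. Both medians had the same sign with every other scaling, filter and left-out library tried, and without WT-33PEA replicate 2 the higher cleared genes numbered 100 and the lower gained genes 64.

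Read against the spike-in, cleared genes had 0.812 and 0.728 counts per ERCC count in WT-33PEA and 1.82 and 2.17 in KO-33PEA. In 1C-20PEA the same ratio was 32.6 and 7.36 in WT and 56.8 and 12.3 in KO, so that it was lower at 33PEA than at 1C-20PEA in both genotypes. Gained genes had 2.38 and 2.86 counts per ERCC count in WT-33PEA and 0.162 and 0.321 in KO-33PEA, against 6.95 and 8.52 in WT-54PEA. In 1C-20PEA they had 0.782 and 0.157 in WT and 2.13 and 0.394 in KO. On this scale both KO-33PEA libraries thus lay below both KO-1C-20PEA libraries for gained genes. At 33PEA the KO libraries were above WT for cleared genes and below WT for gained genes on this scale too. An exact test of 2 against 2 could not go below 0.33.

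Genes of the oocyte and of early maternal function were higher. Of 38 listed genes, 32 were in the files and 31 were tested, and 10 were higher and 0 lower in KO-33PEA (32.3%, against 5.66% of all genes). Of the 31, 29 had a fitted change above 0, and 26 had both KO libraries above both WT libraries, which held for 20.1% of all genes tested. Their median log2 change was 2.47. It was 2.37 with the RLE scaling and 1.59 with ERCC scaling, which put 0 of the 31 past the threshold, and 1 was past it without WT-33PEA replicate 2.

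Bcl2l10, a Bcl-2 family gene expressed in oocytes, had 448.5 and 280.1 CPM in WT and 6634 and 7482 in KO. Its log2 change was 4.28 ± 0.60 (SE, n = 2 libraries a group), with an adjusted p of 0.000636 in edgeR. This SE and those given below come from the pooled fit and its shared spread, not from the 2 libraries of a group alone. Both KO libraries were far above both WT libraries, which were also under the 2610 and 1505 CPM of WT-1C-20PEA. Padi6, a component of the cytoplasmic lattices of the egg, had 288 and 212 CPM in WT and 2888 and 2492 in KO (log2 change 3.43 ± 1.07, adjusted p = 0.0440 in edgeR). Ube2d3, a ubiquitin-conjugating enzyme, had 713 and 431 CPM in WT and 7020 and 5932 in KO. At 33PEA the gap between the groups was wider than the gap within either group for these 3 genes. In KO-1C-20PEA, Ube2d3 had 3539 and 7473 CPM, against 834 and 1344 in WT-1C-20PEA, and Bcl2l10 had 6769 and 9849. Ube2d3 and Bcl2l10 were thus higher in KO than in WT at that stage already. Padi6 was lower in KO there, at 1118 and 788 CPM against 2446 and 3617 in WT.

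Other oocyte genes rose as well. Nlrp14, of the NLRP family of maternal-effect genes, had 260.3 and 117 CPM in WT and 1161 and 1807 in KO, and the importin Kpna7 had 113 and 118.5 in WT and 723 and 914 in KO. Bmp15, an oocyte growth factor, had 127 and 126 CPM in WT and 824 and 959 in KO, and Zp4, of the zona pellucida, had 1143 and 1113 in WT and 5055 and 4824 in KO. Their adjusted p-values ran from 0.00733 to 0.0434. Nlrp2, Izumo1r, the egg receptor of sperm Izumo1, and Dnmt3l also passed, and the counts of Dnmt3l came from KO replicate 2 alone, at 17.6 CPM. The oocyte growth factor Gdf9 had 465 and 318 CPM in WT and 2074 and 2300 in KO, a separation of the groups that did not pass (adjusted p = 0.116).

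Eif4e1b, an oocyte form of the cap-binding protein, had 1080 and 532 CPM in WT and 10270 and 11480 in KO, and its log2 change was 3.75 ± 0.67 (SE, n = 2, adjusted p = 0.00304 in edgeR). It was at 22.5 and 6.70 CPM in WT-54PEA and 4552 and 8472 in WT-1C-20PEA. Rdx, the membrane and actin linker radixin, had 137 and 63.99 CPM in WT and 1481 and 2123 in KO, and Ctnna1, alpha-catenin of cell junctions, had 45.8 and 24.5 in WT and 420.1 and 462 in KO. Both KO libraries were above both WT libraries for all 3 genes, which the rule for naming genes required. In 1C-20PEA, Ctnna1 had 26.4 and 32.1 CPM in WT and 179 and 214 in KO, so that KO was above WT at that stage already. The genotypes overlapped there for Eif4e1b and Rdx. The 3 genes belong to lists on translation and on cell junctions. In these, 2 of 43 and 3 of 33 tested genes were higher (4.65% and 9.09%, against 5.66% of all genes). Lower were 3 and 1 (6.98% and 3.03%, against 4.46%). The junction list had a median of 2.02 and also held Ocln, a tight junction gene with 25.2 and 42.7 CPM in WT and no count in KO, at least 153-fold lower.

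**Figure D3:**
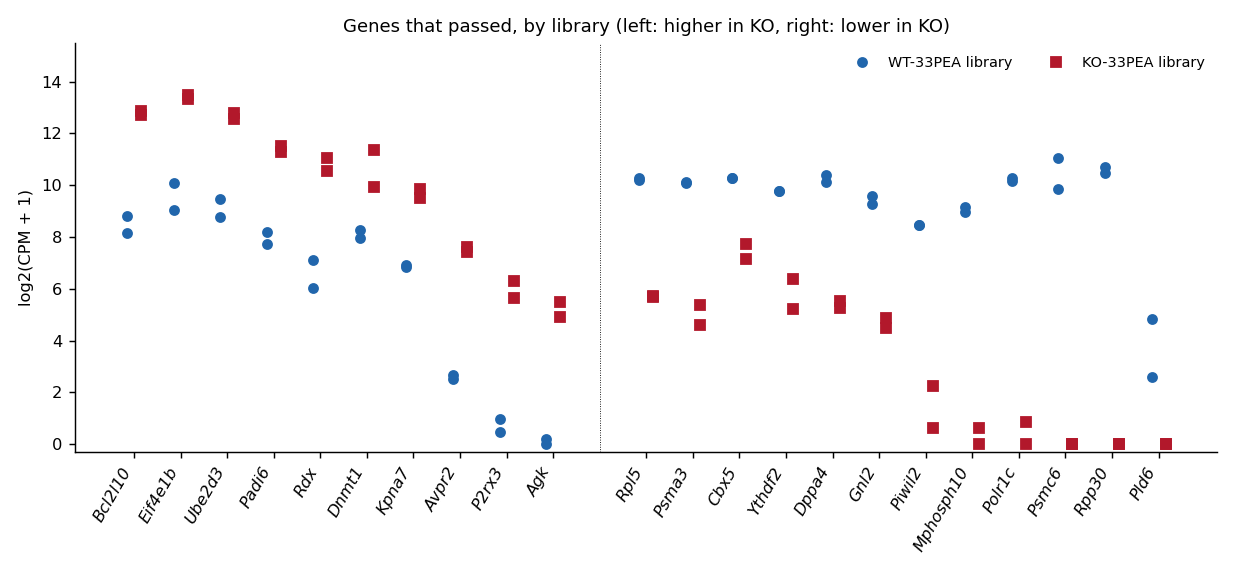
Level in each library, as log2(CPM + 1), of 22 genes that passed at 33PEA; blue circles are the 2 WT libraries and red squares the 2 KO libraries, with genes higher in KO on the left and lower in KO on the right. The groups do not overlap for any gene drawn, from Bcl2l10 (448.5 and 280.1 against 6634 and 7482 CPM) to Pld6 (5.11 and 27.3 against 0 and 0 CPM). For all but Pld6 the naming rule required this.

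The largest rises among genes at 1 CPM or more in all 4 libraries were of genes close to absent in WT. Avpr2, a vasopressin receptor gene, had 5.43 and 4.74 CPM in WT and 197 and 168 in KO, with a log2 change of 5.16 ± 0.79 (adjusted p = 0.00115 in edgeR). Pcdh15, a protocadherin, had 5.59 and 3.56 CPM in WT and 224 and 220.5 in KO, and P2rx4, an ATP-gated channel, had 1.92 and 1.19 in WT and 60.8 and 188 in KO. Avpr2 and Pcdh15 were at 490 and 945 CPM and at 271 and 270 CPM in WT-1C-20PEA, and at 9.78 and 10.9 CPM and at 0 in WT-54PEA. The others were Gfm1, Myo5b, Tmtc4, Dnm3, Tubb6, Mlc1 and Pfn2, with log2 changes of 5.02 to 5.61. Gfm1, a mitochondrial elongation factor, differed from Avpr2 and Pcdh15 in its course: it had 4.93 and 6.64 CPM in WT-1C-20PEA and 96.5 and 128 in KO-1C-20PEA. Tmtc4 differed from them too, with 28.2 and 15.3 CPM in WT-1C-20PEA and 35.6 and 5.73 in KO-1C-20PEA, against 208 and 83.3 in KO-33PEA.

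A further set of genes that rose was under 1 CPM in both WT libraries. P2rx3, another ATP-gated channel, had 0.958 and 0.395 CPM in WT and 48.6 and 78.5 in KO. It was at 248 and 335 CPM in WT-1C-20PEA. Asxl3, a Polycomb-related gene, had no count in WT and 7.83 and 123 CPM in KO, at least 233-fold higher. The KO libraries of Asxl3 were far from each other, as they were for Bin3, at 48.2 and 196 CPM, and Usp31, at 33.4 and 109 CPM. Plpp5, Csmd3, Pms1, Tmod3, Alas1 and Kctd13 completed this set, with 23.2 to 97.8 CPM in the KO libraries.

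Ribosome biogenesis genes were lower. Of 57 tested, 18 fell (31.6%, against 4.46% of all genes), 0 rose, and 52 had both WT libraries above both KO libraries, which held for 20.7% of all genes tested. The median log2 change was −3.76, −3.83 with RLE and −4.78 with ERCC scaling, under which 5 were lower. Lower genes numbered 9 without the second WT library, 10 without the first KO library and 13 without either of the other two.

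Mphosph10, a part of the complex that processes the small subunit RNA, had 503 and 576 CPM in WT and 0.540 and 0 in KO. Its 4 counts in KO against 6063 in WT gave a log2 change of −10.83 ± 1.26 (SE, n = 2) and an adjusted p of 0.000112 in edgeR. The KO libraries were also under WT-1C-20PEA, at 31.9 and 26.3 CPM. Polr1c, a subunit shared by RNA polymerases I and III, had 1243 and 1157 CPM in WT and 0.810 and 0 in KO (adjusted p = 0.00287), and it had no count in the 4 libraries of 1C-20PEA. Gnl2, a nucleolar GTPase, had 774 and 621 CPM in WT and 21.6 and 28.5 in KO.

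Nop16, Ebna1bp2 and Nop2, which act in the large subunit pathway, fell as well. Nop16 had 528 and 509 CPM in WT and 8.10 and 7.72 in KO, and no count at 1C-20PEA. Noc3l, Noc4l, Dimt1, Bms1, Gar1 and Taf1a had 34.6 to 219 CPM in the WT libraries and no count in either KO library. Npm1, encoding nucleophosmin, was the exception at high level, with 4869 and 3933 CPM in WT and 5340 and 5530 in KO (adjusted p = 0.852).

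Of the 76 cytosolic ribosomal protein genes tested, 28 fell (36.8%, against 4.46% of all genes) and 0 rose. Every one of the 76 had both WT libraries above both KO libraries, against 20.7% of all genes tested, and their summed level was 33653 and 35713 CPM in WT and 4081 and 4850 in KO. The median log2 change was −3.12, and it was −3.24 with RLE and −4.04 with ERCC scaling, under which 0 passed. Lower genes numbered 18 without the first WT library, 8 without the second, 9 without the first KO library and 10 without the second. Ribosomal protein genes have many near-identical copies in mammalian genomes, and how reads shared with such copies were counted is not given in the sources used here, so levels of single members are uncertain.

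Rpl5 had 1169 and 1254 CPM in WT and 51.7 and 50.9 in KO, with a log2 change of −4.56 ± 0.87 (SE, n = 2, adjusted p = 0.00423 in edgeR). In WT-1C-20PEA it had 80.0 and 75.1 CPM, and in WT-54PEA 2964 and 3481. Rpl34 had 177 and 179.5 CPM in WT and 7.83 and 11.1 in KO. The KO libraries of both genes lay near the 1C-20PEA level and the WT libraries between 1C-20PEA and 54PEA. The smallest differences in the list were those of Rps2, with 127 and 111 CPM in WT and 93.3 and 73.1 in KO, and Rpsa, with 292 and 250.2 in WT and 230.2 and 128 in KO.

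**Figure D4:**
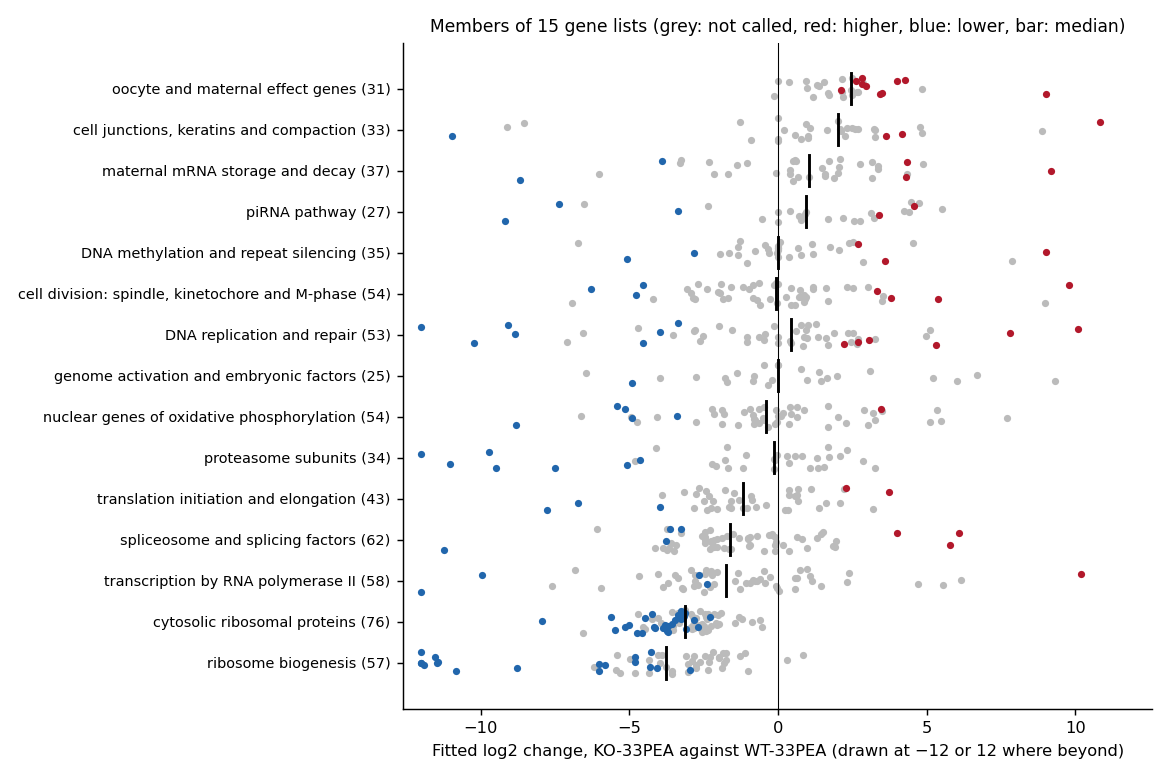
Fitted log2 change between KO-33PEA and WT-33PEA for each tested member of 15 gene lists (number tested in brackets); grey points did not pass, red were higher and blue were lower in KO, and bars are list medians. Values far from 0 belong to genes without a count in a group, whose fitted change is not a measured ratio. All 76 ribosomal protein genes lie below 0, and 29 of 31 oocyte and maternal genes lie above 0.

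Other general machinery had medians below 0 and shares of calls nearer to those of all genes. Of 58 tested genes of RNA polymerase II and its general factors, 4 fell (6.9%, against 4.46% of all genes) and 1 rose (1.72%, against 5.66%). Of the 58, 36 had both WT libraries above both KO libraries, which held for 20.7% of all genes tested. The median was −1.73, or −1.39 with absent genes at their bound. Polr2f and Polr2j, small subunits of the polymerase, had 407 and 356 CPM and 344 and 327 CPM in WT, and 46.7 and 73.6 CPM and 71.8 and 55.6 CPM in KO. Taf2, of the TFIID complex, had 150.5 and 134 CPM in WT and no count in KO, and Ccnh, cyclin H, had its counts in WT replicate 1 alone. The gene that rose, Tbpl2, encodes the TATA-binding protein variant of oocytes and had 40.0 CPM in KO replicate 2 and no count in the other libraries.

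The spliceosome list had 4 lower (6.45%) and 3 higher genes (4.84%) of 62, near the shares of 4.46% and 5.66% over all genes, and a median of −1.61. Of the 62, 39 had both WT libraries above both KO libraries, against 20.7% of all genes tested. Snrpc, of the U1 particle, had 866 and 701 CPM in WT and 45.0 and 70.2 in KO, and Snrpd1, a core Sm protein, had 682 and 625 in WT and 59.8 and 76.1 in KO. Plrg1, Lsm3 and Lsm8 rose. The translation factors had a median of −1.16, with Eif3a at 169 and 152 CPM in WT and 2.97 and 0 in KO, and Eif3b at 382 and 208 in WT and 4.86 and 33.0 in KO. Eif6 rose beside Eif4e1b, from 70.9 and 44.6 CPM to 274 and 297.

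Proteasome genes were divided. Of 34 tested, 7 fell and 0 rose (20.6%, against 4.46% of all genes), while the median was −0.11. Psmc6, an ATPase of the regulatory particle, had 917 and 2091 CPM in WT and no count in KO, at least 6675-fold lower. Psma3, of the core particle, had 1074 and 1098 CPM in WT and 40.9 and 23.3 in KO, and Psmd11 had 1135 and 1235 in WT and 3.24 and 0 in KO. Against these, Psma7 had 46.6 and 29.4 CPM in WT and 63.1 and 124.5 in KO, and the proteasome activator Psme4 had 677 and 318 in WT and 1248 and 1649 in KO, with adjusted p-values of 0.394 and 0.355. Of the nuclear genes of oxidative phosphorylation, 5 of 54 fell (9.26%) and 1 rose (1.85%), with a median of −0.39. Atp5mc1 had 89.2 and 87.1 CPM in WT and 1.62 and 3.39 in KO, and Ndufb4 was the gene that rose.

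The falls outside the lists included genes of RNA metabolism, transport and chromatin. Rpp30, a subunit of ribonuclease P, had 1411 and 1662 CPM in WT and no count in KO, at least 7053-fold lower (adjusted p = 0.00336 in edgeR). Dync1li1, a dynein light intermediate chain, had 1709 and 1323 CPM in WT and 17.8 and 5.25 in KO. Kdm5a, a histone demethylase, had 517 and 459 CPM in WT and 1.62 and 8.49 in KO. In 1C-20PEA, Rpp30 was at 18.8 and 53.8 CPM in WT and 26.9 and 7.63 in KO, and Dync1li1 was under 5.73 CPM or at that level in all 4 libraries. Nup35, Mpc2, Supt7l, Surf2 and Cnpy4 were under 1 CPM in both KO libraries, with 305 to 1181 CPM in the WT libraries. Mrpl43, Patl1, Polr3c, Ppat, Sltm and Supt20h were at 1.54 to 22.4 CPM in KO, with log2 changes of −5.79 to −6.49.

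Embryonic transcription factors and genome activation genes did not move as a group. Of 25 tested, 1 fell (4.0%, against 4.46% of all genes) and 0 rose (against 5.66%), and their median log2 change was 0. Dppa4, a chromatin factor of early embryos and stem cells, had 1120 and 1326 CPM in WT and 44.8 and 36.7 in KO, with a log2 change of −4.91 ± 1.49 (SE, n = 2, adjusted p = 0.0440 in edgeR). It had no count at 1C-20PEA in either genotype. Klf17 had 1089 and 895 CPM in WT and 110.3 and 472 in KO (adjusted p = 0.255), and Nr5a2 had 261 and 172 in WT and 137 and 105 in KO (adjusted p = 0.788). Tfap2c had 530.5 and 339.5 CPM in WT and 1008 and 707 in KO (adjusted p = 0.328), while Nanog and Cdx2 had no count in any library of this stage.

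The regulators of maternal mRNA had 3 higher (8.11%) and 2 lower genes (5.41%) of 37, near the shares of 5.66% and 4.46% over all genes. Pan2, a deadenylase subunit, had 5.43 and 7.11 CPM in WT and 81.8 and 165 in KO, and Cpeb1, a regulator of oocyte polyadenylation, had 5.75 and 4.35 in WT and 125 and 81.8 in KO. Ythdf2, a reader of m6A that promotes decay, had 871 and 874 CPM in WT and 81.4 and 36.0 in KO, with an adjusted p of 0.0172 in edgeR. Tut7, a uridyltransferase of maternal mRNA clearance in the mouse, had 63.2 and 71.5 CPM in WT and 2 counts over both KO libraries. Its partner Tut4 had 335 and 191 CPM in WT and 0 and 8.02 in KO, which did not pass (adjusted p = 0.124). Edc3 rose on the counts of KO replicate 2 alone.

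The piRNA pathway, in which Pld6 acts, had 2 higher (7.41%, against 5.66% of all genes) and 3 lower genes (11.1%, against 4.46%) of 27, with a median of 0.95. Lower genes numbered 0 without the first library of either genotype and 1 without the second of either, and 0 passed in either direction with ERCC scaling. Piwil2, a PIWI protein gene, had 349.5 and 354 CPM in WT and 0.540 and 3.70 in KO, with a log2 change of −7.37 ± 2.33 (SE, n = 2, adjusted p = 0.0466 in edgeR). Pnldc1, the trimmer of piRNA 3′ ends, had 1786 and 1684 CPM in WT and 13.2 and 326 in KO. Both genes were higher in WT-33PEA than in WT-1C-20PEA, where Piwil2 had 10.6 and 2.63 CPM and Pnldc1 had 146 and 167. Gtsf1, a PIWI cofactor, had 13.4 and 14.8 CPM in WT and 167 and 134 in KO, and Tdrkh, a Tudor protein that binds PIWI, had 12.1 and 0 in WT and 189 and 102 in KO. Mov10l1, a helicase of the pathway, passed on the counts of WT replicate 1 alone. Piwil1 had 3.67 and 0.790 CPM in WT and 11.6 and 15.3 in KO (adjusted p = 0.101), and Piwil3 had 1.92 and 0 in WT and 37.8 and 0 in KO (adjusted p = 0.236).

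Among 35 genes of DNA methylation and repeat silencing, 3 rose (8.57%) and 2 fell (5.71%), near the shares of 5.66% and 4.46% over all genes. Dnmt1, the maintenance methyltransferase, had 310 and 249 CPM in WT and 966 and 2654 in KO, with a log2 change of 2.696 ± 0.568 (SE, n = 2, adjusted p = 0.00734 in edgeR). Dnmt3a, a de novo methyltransferase, had 27.6 and 15.8 CPM in WT and 269 and 264 in KO. Trim28, the corepressor of zinc finger proteins, had 399 and 309.5 CPM in WT and 9.45 and 11.7 in KO, and Cbx5, encoding HP1 alpha, had 1253 and 1245 in WT and 141 and 209 in KO. In WT-1C-20PEA Dnmt1 had 2576 and 2497 CPM and Dnmt3a 466 and 207.5, all above the WT-33PEA levels.

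Cell cycle and DNA replication genes moved in both directions. In the replication and repair list 6 of 53 rose (11.3%, against 5.66% of all genes) and 7 fell (13.2%, against 4.46%). Cdc6, a replication licensing factor, had 236 and 208 CPM in WT and 8.37 and 20.1 in KO. Pcna, the polymerase clamp, had 67.0 and 67.6 CPM in WT and 243 and 382 in KO. In the division list 4 of 54 rose (7.41%) and 3 fell (5.56%). Cdk1, the mitotic kinase, had 4.15 and 0 CPM in WT and 95.3 and 82.6 in KO, and the checkpoint kinase Ttk had 35.9 and 27.3 in WT and 539 and 343 in KO. Cdc20 and Cdc25a, which drive mitotic exit and entry, fell, Cdc20 from 116 and 107 CPM to 8.10 and 0.

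The lists on stress, p53 and interferon held 1 to 4 calls in each direction. In the stress list 4 of 48 rose (8.33%, against 5.66% of all genes) and 1 fell (2.08%, against 4.46%), with a median of 0.07. Dnaja1, a heat shock cochaperone, had 27.1 and 61.6 CPM in WT and 301.5 and 286 in KO, and Chac1, a target of the unfolded protein response, had 15.96 and 0 in WT and 108 and 199 in KO. Eif2ak3, the kinase PERK, had 7.98 and 52.3 CPM in WT and no count in KO. In the p53 and apoptosis list Mdm4, an inhibitor of p53, had 35.9 and 83.8 CPM in WT and no count in KO (at least 265-fold lower, adjusted p = 0.000674 in edgeR), and Btg2 rose. Of 16 interferon and RNA sensing genes, 2 rose (12.5%), Ifnar1 among them, and Irf9 fell (6.25%), the counts of Ifnar1 coming from KO replicate 2 alone. The share of members called was 3.23% in each direction in the p53 list.

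The remaining lists had small counts. Over all genes tested, 5.66% were higher and 4.46% lower. Of 26 genes of mitochondrial shape and lipid enzymes, 3 rose (11.5%) and 2 fell (7.69%), Pld6 among the latter. Pld1, a phospholipase D that is not part of the piRNA pathway, had 471 and 242.5 CPM in WT and 2304 and 2119 in KO, and Tamm41, of cardiolipin synthesis, had 2.08 and 5.14 in WT and 19.3 and 74.99 in KO. The third gene that rose, Oma1, had 2 counts over both WT libraries. Of 12 genes of the small RNA machinery, Dgcr8 rose and Ago3 fell (8.33% in each direction). Of 43 metabolic genes, Pdha1 and Gpi rose (4.65%) and 1 gene fell (2.33%), both under the shares over all genes. Of 14 histone and histone chaperone genes, Asf1b rose and Nap1l4 fell (7.14% in each direction).

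Whether the change at 33PEA differed from that of earlier stages was tested as an interaction, against the mean KO and WT difference at GV, MII, 10PEA and 1C-20PEA. It passed for 724 genes in the direction of higher in KO at 33PEA (4.19%) and for 454 in the direction of lower (2.63%, edgeR quasi-likelihood test). The test gave no usable estimate for some genes without a count in a group of an earlier stage. Polr1c, Nop16, Dppa4 and Dync1li1, which all fell at 33PEA, had SEs of 12420 to 42070 and are not among the 454. Against 54PEA the same held for Myg1, with an SE of 1455 and no count in KO-54PEA. Mphosph10 and Myg1 had the smallest adjusted p among the named genes. The interaction of Mphosph10 was −10.92 ± 1.29 on the log2 scale (adjusted p = 0.000192), with 31.9 and 26.3 CPM in WT-1C-20PEA and 65.1 and 24.0 in KO-1C-20PEA. Myg1, a nuclease of nucleus and mitochondria, had 223 and 223 CPM in WT-33PEA and no count in KO-33PEA, against 31.0 and 20.2 in WT-1C-20PEA and 21.6 and 24.5 in KO-1C-20PEA. Bcl2l10 passed too, with 2610 and 1505 CPM in WT-1C-20PEA and 6769 and 9849 in KO-1C-20PEA (interaction 3.83 ± 0.63, adjusted p = 0.00240).

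Against 54PEA, 2481 genes passed in the direction of higher in KO at 33PEA (14.3%) and 499 in the direction of lower (2.89%). Cystm1 had 62.1 and 74.1 CPM in WT-33PEA and 804 and 683 in KO-33PEA, and 27.0 and 37.5 in WT-54PEA against no count in KO-54PEA. At 54PEA, Mphosph10 had 333 and 438 CPM in WT and 233 and 166 in KO, so that the gene nearly without counts in KO-33PEA was counted in both KO libraries of the later stage. Dppa4 likewise had 998 and 1421 CPM in WT and 1435 and 116 in KO at that stage. The KO-54PEA libraries had ERCC shares of 55.5% and 77.8%, the highest of the 26, and the part this plays in the comparison was not tested.

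**Figure D5:**
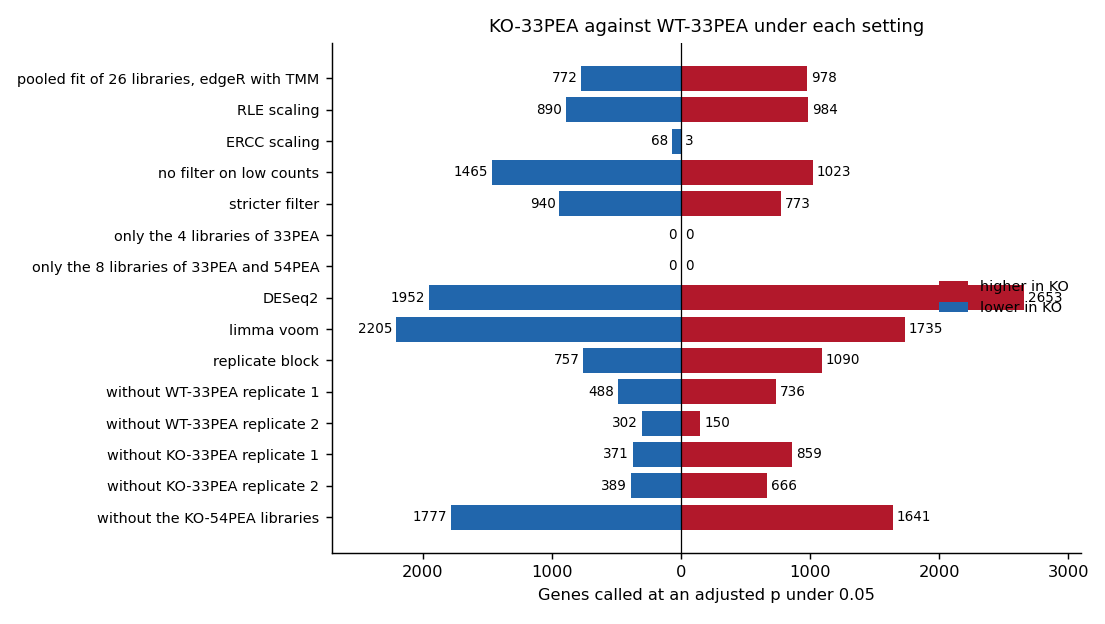
Number of genes called at an adjusted p under 0.05 between KO-33PEA and WT-33PEA, higher in KO to the right (red) and lower in KO to the left (blue), for the pooled edgeR fit and each alternative. The pooled fit gives 978 and 772, the fits of the 4 and the 8 late libraries give 0 and 0, and DESeq2 gives 2653 and 1952.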

How the data were processed

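Long RNA was read in 26 oocyte and embryo libraries, of which the 4 of 33PEA carry the comparison. The values are read counts per gene as deposited by the authors, in tables of 32303 genes and 92 ERCC spike-ins. The submitters' processing notes name Trim Galore, featureCounts, TopHat and STAR 2.7.1a, with no role given for each, and the genome build and strand setting are not given in the sources used here. From 1 table, 8 lines that name no gene were dropped.

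Counts were fitted with edgeR 4.0.16 in R 4.3.3 (quasi-likelihood test, TMM scaling, filterByExpr) as 13 group means over the 26 libraries, because 2 libraries a group give little information on spread. Of 32303 genes, 17294 passed the filter on low counts. The Benjamini-Hochberg adjustment ran over all genes tested, with a threshold of 0.05. The code was tested on simulated data. Each SE was obtained by dividing the absolute log2 change by the square root of F, so it rests on the spread shared over the 26 libraries. A fold against a group without counts is a bound from 3 counts over the group, which covers counting error only, and no fold is given at 1 to 3 counts. ERCC counts entered only the scaling checks.

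Alternatives were RLE and ERCC scaling, no filter, a filter of 50 counts in 2 libraries, fits of the 4 libraries and of the 8 libraries of 33PEA and 54PEA, DESeq2 1.42.0, limma 3.58.1 voom, a replicate block and each library left out. A fit without the KO-54PEA libraries was chosen after seeing the data.

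The comparison and the 25 gene lists were chosen with earlier results of these data known. Named genes are Pld6, the embryo markers Zp3, Nlrp5, Padi6, Dppa3, Pou5f1 and Gdf9, and genes that passed with a symbol that is not a LOC number, groups apart and at least 5 CPM in the higher group. From these came the 10 largest changes each way at 1 CPM or more in all libraries, and the 10 highest each way among genes under 1 CPM in both libraries of the lower group. Up to 4 members per list and 5 per direction of each stage difference followed, by smallest adjusted p. List members named outside this rule were chosen after their values were seen. Small RNA and testis samples were not analysed here. Some genes that the rule covers are not reported here.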

Additional observations from a re-analysis of the deposited data

Results flagged for a closer look

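The KO and WT difference at 33PEA departed from that at other stages by interaction tests in the pooled edgeR fit. Against the mean of GV, MII, 10PEA and 1C-20PEA, 724 genes were shifted towards KO and 454 towards WT. Against 54PEA these counts were 2481 and 499. Genes left without a usable estimate for want of counts in a group are not in these counts. Among the named genes shifted towards WT against the earlier stages, the adjusted p-values were 0.000192 for Mphosph10 and for Myg1, 0.000545 for Pgm3, 0.000627 for Ddx27 and 0.000811 for Desi2. Among those shifted towards KO they were 0.00175 for Avpr2, 0.00212 for Agk, 0.00237 for P2rx3, 0.0024 for Bcl2l10 and 0.00303 for Gipc2.

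Ddx27, a nucleolar helicase, had 74.7 and 51.4 CPM in WT-33PEA and no count in KO-33PEA, against 28.4 and 26.1 CPM in WT-1C-20PEA and 47.2 and 67.1 in KO-1C-20PEA. Agk, the acylglycerol kinase of mitochondria, had 1 count over both WT-33PEA libraries and 29.3 and 44.3 CPM in KO-33PEA. At 54PEA it had 36.8 and 68.8 CPM in WT and no count in KO. The libraries of Agk therefore stood in opposite orders at the 2 stages.

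Against 54PEA, the genes shifted towards KO at 33PEA had adjusted p-values of 3.47e-06 for Cystm1 and of 3.9e-06 for Agk, Cdca3, Ppih and Prr13. Those shifted towards WT had 4.58e-05 for Mphosph10, 7.27e-05 for Ly75, 7.92e-05 for Znf184, 0.000135 for Dclre1b and 0.000144 for Nkapd1. Dclre1b, a nuclease of telomere protection, had 218 and 202 CPM in WT-33PEA and no count in KO-33PEA, while at 54PEA it had 13.2 and 23.6 CPM in WT and 10.8 and 68.2 in KO. Znf184 had 279 and 127 CPM in WT-33PEA and 0 and 7.41 in KO-33PEA, and it had no count in WT-54PEA against 31.6 and 38.8 CPM in KO-54PEA.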

How the results depend on the processing

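None of the 132 genes taken by the naming rule reversed its direction at 33PEA under any setting that tested it. Apart from Pld6 and the embryo markers, the rule took only genes with the groups apart. A reversal with a library left out was therefore unlikely beforehand, and its absence is no check of these genes. Genes higher and lower numbered 978 and 772 in the pooled edgeR fit, 3 and 68 with ERCC scaling, 2653 and 1952 with DESeq2, 1735 and 2205 with voom, 1641 and 1777 without the KO-54PEA libraries, and 0 and 0 with the 4 or the 8 late libraries. Lower genes were 1465 without a filter. Leaving out a library gave 150 to 859 higher and 302 to 488 lower genes. The difference from the earlier stages gave 2 and 34 with ERCC scaling, 2293 and 1647 with DESeq2, 1697 and 1743 with voom, 1270 and 1155 without the KO-54PEA libraries, 822 lower without a filter, and 96 to 760 higher and 184 to 343 lower with a library left out, both lowest without WT-33PEA replicate 2. The difference from 54PEA, as a percentage of the genes tested, was 14.3% higher and 2.89% lower in the pooled fit and 21.8% and 0.422% with ERCC scaling (3763 and 73 genes). It was 24.9% and 8.21% with the stricter filter, 7.17% and 4.65% lower with DESeq2 and voom (1240 and 804), and 0 and 0 with the 8 late libraries (edgeR, with 2668 genes at an unadjusted p under 0.05), while 863 genes were lower without a filter. With a library left out it was 10.3% to 12.5% higher and 1.86% to 2.15% lower, the share of lower genes being smallest without WT-33PEA replicate 1 (1.86%) and then without KO-33PEA replicate 1 (1.9%). The median change of cleared genes was 1.51 with ERCC scaling, 2.06 without a filter, 2.12 with the stricter filter and 1.73 to 3.21 with a library left out, and that of gained genes −3.94, −3.40, −3.46 and −3.60 to −2.88. The causes were not tested, other than fewer libraries or genes by construction. The log2 ratio of gene counts per ERCC count was −1.0 without the 10 genes with the most reads.

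ERCC scaling moved the median change of the genes counted at 33PEA from 0.54 to −0.38. Calls were 55.9% higher in the pooled fit and 4.23% with ERCC scaling, 41.1% without a filter, 45.1% with the stricter filter and 44.0% with voom. Libraries with the same replicate number deviated from their group means with a Pearson correlation of 0.0899 over 9297 genes. The labels give them only a number in common, and this value cannot show whether they shared a batch or a parent. With the replicate block, 1090 genes were higher and 757 lower at 33PEA. Against the earlier stages the block gave 885 and 493, and against 54PEA 2167 and 400. With 2 libraries a group, 4235441 to 6691910 gene counts each, genes at a few CPM rest on few reads.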
